A study of Mus musculus with 11 samples.

Results

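PU.1 binding was compared between B cells 1 day and 3 days after activation, from the peak lists of 4 anti-PU.1 ChIP-seq libraries, 2 per day, out of 11 samples in the series. In ChIP-seq an antibody pulls down a protein with the DNA it holds, and a peak is a place where such DNA is enriched over an input library. Peak positions of all 4 lists that lay within 200 bp of each other were merged into union regions, and each region was scored as called or not called in each library. Replicates 1 and 2 of day 1 gave 27321 and 38052 peaks, and those of day 3 gave 34410 and 34061. These 133844 peaks merged into 57561 union regions.

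All cells were resting mature B cells from spleens of B1-8i mice (written Bi-8i in the sample labels) on strain background 129. These mice carry a gene-targeted antibody against the hapten NP. The cells of both days were cultured with the antigen NP-Ficoll at 0.01 ng/mL, the T cell signal CD40L, and IL-5, IL-4 and IL-2, so by the labels the groups differ in the length of stimulation. By day 3 the culture is described as differentiated into plasma cells. Neither the share of cells that had done so nor the age and number of the mice was stated in the sources used here. The study asked how the binding landscape differs before and after this step. Whether the replicates of a day were separate animals or cultures is not labelled. The p-values therefore cover only the spread between libraries, and this spread may be technical. Peak lists hold no RNA levels, and the labelled cell type could not be checked against marker expression here.

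PU.1, encoded by Sfpi1 (also called Spi1), is an Ets-family transcription factor required for B cells and myeloid cells. Ets factors bind a GGAA core, and PU.1 favours a purine-rich flank, as in GAGGAA, whereas many other Ets factors favour CCGGAA, common at promoters. PU.1 also recruits IRF4 to a composite site in which the Ets core is followed by an IRF site, the Ets-IRF composite element (EICE), searched here as GGAANNGAAA. In B cells PU.1 is known to bind antigen receptor and MHC class II genes, and its level is known to be low in plasma cells.

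Reference sequence from mm9, 101 bases on the plus strand around the peak position, shows the sites that the results turn on. Capitals mark a GAGGAA on either strand, likewise a CCGGAA, and likewise an EICE. The first 4 places were called in all 4 libraries.

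Cd244 upstream (chr1:173481649-173481749): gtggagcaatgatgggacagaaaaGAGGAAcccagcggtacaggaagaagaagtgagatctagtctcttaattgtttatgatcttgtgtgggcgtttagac
Sykb upstream (chr13:52668020-52668120): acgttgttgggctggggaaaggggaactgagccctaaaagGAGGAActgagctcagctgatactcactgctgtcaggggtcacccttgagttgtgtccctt
Pax5 intron (chr4:44684027-44684127): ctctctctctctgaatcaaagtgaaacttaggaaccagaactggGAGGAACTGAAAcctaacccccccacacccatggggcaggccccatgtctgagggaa
Prdm1, beyond the gene end (chr10:44154506-44154606): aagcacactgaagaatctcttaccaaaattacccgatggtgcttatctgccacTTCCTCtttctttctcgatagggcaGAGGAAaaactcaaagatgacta

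The next 2 were called in both day 1 libraries and in no day 3 library.

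Tomm5 promoter (chr4:45121428-45121528): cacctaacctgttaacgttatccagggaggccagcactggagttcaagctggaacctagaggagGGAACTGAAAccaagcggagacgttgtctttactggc
St3gal1 upstream (chr15:66977024-66977124): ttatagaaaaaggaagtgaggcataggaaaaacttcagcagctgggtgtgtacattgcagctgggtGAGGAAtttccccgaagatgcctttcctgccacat

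The last 4 were called in both day 3 libraries and in no day 1 library.

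Sgpl1 intron (chr10:60584600-60584700): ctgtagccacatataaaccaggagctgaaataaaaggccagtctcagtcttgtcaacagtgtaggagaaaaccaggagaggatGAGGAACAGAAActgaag
Rtn4rl1 intron (chr11:75019931-75020031): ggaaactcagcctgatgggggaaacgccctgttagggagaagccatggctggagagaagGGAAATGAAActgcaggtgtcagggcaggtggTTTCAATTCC
Creb3l2 intron (chr6:37376778-37376878): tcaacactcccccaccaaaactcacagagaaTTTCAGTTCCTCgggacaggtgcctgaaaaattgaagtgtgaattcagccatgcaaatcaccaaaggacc
Fyco1 promoter (chr9:123761185-123761285): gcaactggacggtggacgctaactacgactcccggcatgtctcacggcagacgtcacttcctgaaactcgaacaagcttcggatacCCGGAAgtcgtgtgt

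The Cd244 site carries a GAGGAA, the Pax5 intron an EICE joined to a GAGGAA, and the Fyco1 promoter a CCGGAA. The Tomm5 promoter and the Rtn4rl1 intron hold an EICE without a GAGGAA in these 101 bases. A match is a description of the sequence and was not tested as a binding site.

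The library of day 3 replicate 1 stood apart and touches most comparisons below. Of the strongest 10% of peaks of the other libraries, it lacked a partner within 200 bp for 445 of 2733 (16.28%, day 1 replicate 1), 654 of 3806 (17.18%, day 1 replicate 2) and 563 of 3407 (16.52%, day 3 replicate 2). Each of the other 9 ordered pairs of libraries lacked between 0.6831% and 2.819%. Counting overlapping intervals instead of positions, a rule added after seeing the data, left 15.51%, 16.08% and 15.82% missing. The gap was wider away from promoters: of the strongest 10% of day 1 replicate 2, day 3 replicate 1 lacked 630 of 3351 distal peaks (18.8%) and 24 of 455 promoter peaks (5.275%). The sample title of this library carries a pair of numbers where the other PU.1 titles carry 1. Whether it stands for 1 preparation or more, and whether its list is complete, is not known here, which limits every comparison with 2 libraries per day. The cause of the gap was not tested.

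**Figure D1:**
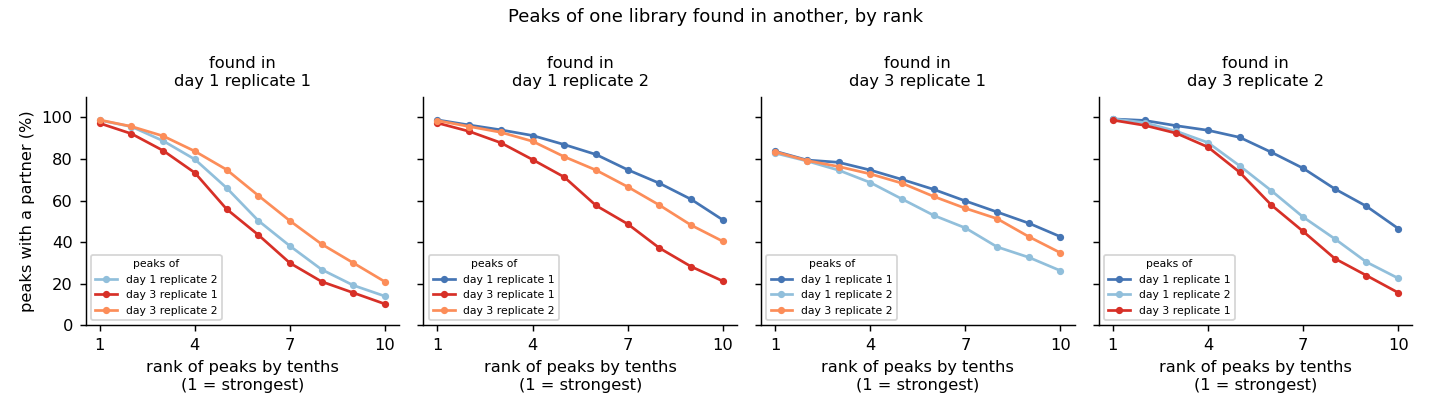
Share of peaks (%, vertical axis) of each library that had a partner within 200 bp in the library named above the panel, by enrichment rank in 10 equal steps (horizontal axis, 1 the strongest). For the strongest 10% the lines start above 97% in 3 panels and between 82.82% and 83.72% in the panel of day 3 replicate 1.

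Single places show the size of the gap. They were picked after their values were seen, as the 5 strongest regions called in every library but day 3 replicate 1. A region 54.1 kb upstream of the transporter gene Slc22a27 (chr19:8094338-8095067) had enrichments of 1591 and 1729 on day 1 and 1830 in day 3 replicate 2, and the nearest peak of day 3 replicate 1 was 311 kb away. A region 14 kb upstream of Cd81, which encodes a tetraspanin, had 741.4, 1147 and 1091 in those libraries. The nearest peak of day 3 replicate 1 lay 4.43 kb away. Regions 81.8 kb from the start of Sfi1, 10.8 kb from that of Lrch1 and 72.8 kb from that of Slc22a8 also lacked a peak there. The lowest of their enrichments was 837. The nearest peaks of day 3 replicate 1 were 18.3, 1.73 and 16.3 kb away. Of the 5 regions, only those named by Cd81 and Lrch1 held a GAGGAA within 100 bp, and that named by Slc22a8 held no GGAA. The regions named by Slc22a27, Sfi1 and Slc22a8 had a peak of the authors' IRF4 lists within 200 bp on both days. In all, 5044 regions were called in every library but this one, against 3396, 1625 and 1375 missing only day 1 replicate 1, day 1 replicate 2 or day 3 replicate 2. Of these 5044 regions 6.186% lay at promoters and 15.46% held an EICE.

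Regions called in all 4 libraries were the most frequent combination, though a minority of the union regions. Of the 57561 union regions 14200 (24.7%) were called in all 4 libraries, 1370 (2.38%) in both day 1 libraries and no day 3 library, and 2177 (3.78%) in both day 3 libraries and no day 1 library. A further 21185 regions (36.8%) were called in a single library. Pairs of libraries from different days called as many regions by themselves as pairs of one day: 2731, 2467, 1187 and 804 for the 4 mixed pairs. The 1370 and 2177 regions restricted to a day lie within that range. With 1 library left out the rule asks for fewer libraries, so these counts can only stay or grow. The day 1 count was then between 2746 and 8845 (without day 3 replicate 1 and without day 1 replicate 1) and the day 3 count between 3810 and 10520 (without day 1 replicate 1 and without day 3 replicate 2).

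**Figure D2:**
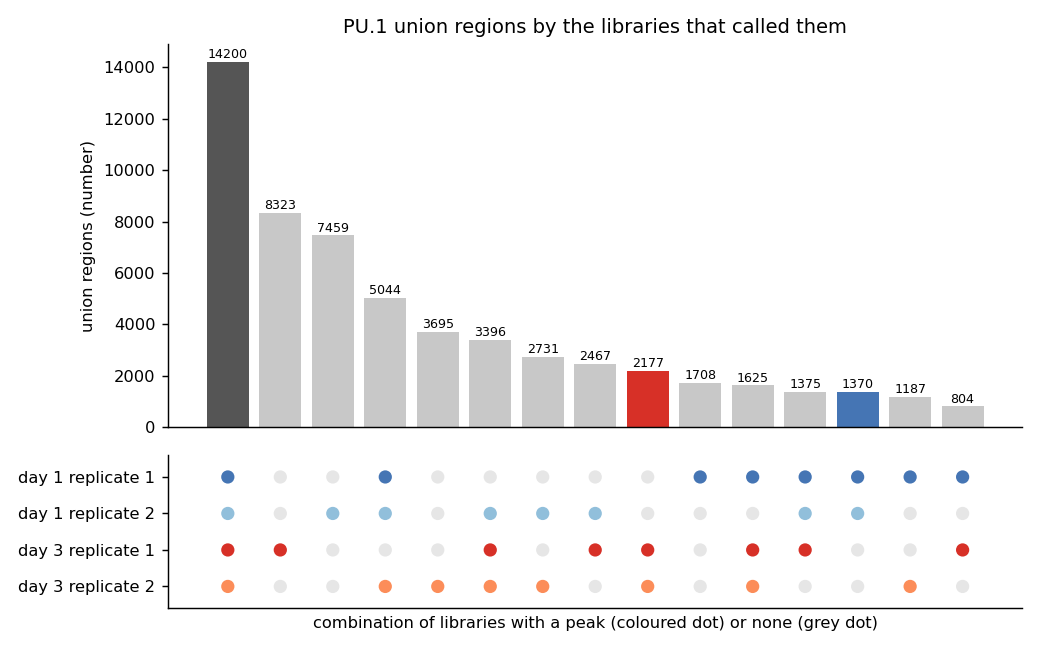
Number of union regions (vertical axis) for each combination of libraries that called them (dots below; coloured, called). The 14200 regions of all 4 libraries (dark grey) are the largest group, and the 1370 of day 1 only (blue) and 2177 of day 3 only (red) are fewer than the regions of most single libraries.

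Regions restricted to a day were weak, as were regions called in a single library. Within a library each peak was given a rank percentile by the authors' fold enrichment over input, 100 being the strongest, and a region was described by its lowest percentile among the libraries that called it. The median was 59.1 for regions of all 4 libraries, 17.4 for day 1 only, 19.3 for day 3 only, 17.6 for regions called in a single library and 26.2 over all union regions. In the lower 50% of a list lay 92.26% of the day 1-only and 91.78% of the day 3-only regions, against 40.34% of the regions common to all, 93.84% of those of a single library and 75.5% of all union regions. Above the 90th percentile in both libraries were 7 day 1-only and 4 day 3-only regions. Enrichments reach from about 15 to over 1000 and carry no error of their own, since the lists hold no read counts.

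The strongest common promoter was that of Cd53, and the strongest common distal site lay upstream of Cd244. The promoter of Cd53, a leukocyte tetraspanin, was called 29 bp past the transcript start (chr3:106592643-106593370), with enrichments of 1342 and 1364 on day 1 and 2330 and 1774 on day 3. Both day 3 values were the higher ones. The promoter of Pdlim2, which encodes a regulator of NF-kB and STAT turnover, had 650.5 and 877.7 on day 1 and 2023 and 1013 on day 3, and its window held a GAGGAA and an EICE. Next came the promoters of Gpr18, a lipid receptor gene, Ap1s3, an adaptor of vesicle sorting, and Rchy1, a ubiquitin ligase; their enrichments lay between 556.4 and 1296. Fold enrichments of different lists are not on a shared scale, so a higher number in a day 3 list is not a measured gain.

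The strongest distal site was the intergenic region 7.62 kb upstream of Cd244 (chr1:173481138-173482456), a receptor gene of the SLAM family. Its enrichments topped every list, with 1865 and 2586 for day 1 and 3245 and 2333 for day 3. The region 10.5 kb upstream of Sykb, the annotation's name for the kinase Syk of antigen receptor signalling, had 1226, 1906, 2032 and 1872 (chr13:52667111-52668450). A region 46.3 kb from Nnmt had 1626, 1729, 2678 and 2151, one 18.4 kb upstream of Ankdd1a 1091, 1408, 2809 and 1579, and one in an intron near Htra4 1140, 1323, 2591 and 1411. All 10 of these leading regions also had an IRF4 group-list peak within 200 bp on at least 1 day, against 4.168% of all union regions. They were picked as the strongest. In the strongest 10% of each list a same-day IRF4 peak was found at 24.36% to 30.32%.

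Among regions of day 1 only, the leading promoter was that of Tomm5, which encodes a subunit of the mitochondrial import pore. Its peak lay 492 bp upstream (chr4:45121282-45121764) with enrichments of 165.8 and 258.6, and neither day 3 library had a peak interval there. The promoter of Slc2a9, a urate transporter gene, had 51.66 and 83.49. The promoter of Coro1a, an actin regulator of leukocytes, had 40.97 and 37.68, that of Smarcd2, a chromatin remodeller subunit, 44.96 and 36.65, and that of Hspa1l, a heat shock protein gene, 36.03 and 59.55.

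The 5 leading distal regions of day 1 only, near Tcf4, Edn2, Fchsd2, BC024139 and Nsmce1, all overlapped a peak interval of a day 3 library whose position lay farther than 200 bp away. In an intron 107 kb from the start of Edn2 the day 1 peaks (280.6 and 521.6) and the day 3 peaks (457.3 and 210.9) were called as separate regions with overlapping intervals. Such overlaps held for 78 of the 1370 and 127 of the 2177 regions, and without them the counts were 1292 and 2050. The leading distal regions without such overlap, chosen after the values were seen, lay 31.2 kb upstream of the sialyltransferase gene St3gal1 (102.4 and 152.2), 118 kb from Tomm20 (91.83 and 137.6), in an intron of Mctp2 (91.51 and 113.2), 11.7 kb upstream of P4ha2 (82.11 and 100.5) and in an intron 50.2 kb from Furin (80.04 and 116.1).

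Among regions of day 3 only, the leading distal site was intergenic, 76.4 kb from Kcnrg (chr14:62302264-62302964), with enrichments of 219.9 and 227.7. An intron of Sgpl1, which encodes the lyase that degrades sphingosine 1-phosphate, had 165.3 and 227.7 (chr10:60584415-60584880), and an intron of Rtn4rl1, a Nogo receptor homologue, had 191.6 and 119.7 (chr11:75019836-75020223). Both windows held an EICE, shown above. An intronic region 4.2 kb from the start of BC017647 had 169.9 and 197, and one in Kdelr1, which encodes a receptor that returns proteins to the endoplasmic reticulum, had 91.9 and 141.1. None of these 5 regions overlapped a day 1 interval; Kdelr1 took the place of the Edn2 site after the values were seen.

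Promoters of day 3 only were led by those of Cdk14 (86.23 and 88.57), Ccdc115 (142.9 and 81.45), Bsdc1 (82.31 and 74.88), Rps25, a ribosomal protein gene (102.6 and 69.01), and Cib1 (183.6 and 64.68). At Cdk14, Bsdc1 and Rps25 a day 1 interval overlapped. Without such overlap, again a choice made after the values were seen, the list went on with Lcor, a nuclear receptor corepressor (81.66 and 62.17), Tfrc, the transferrin receptor (86.23 and 54.48), and Fyco1, an adaptor of autophagosome transport (73.82 and 53.23). Of the 8, Ccdc115, Rps25 and Fyco1 held a CCGGAA and Cdk14 and Lcor a GAGGAA within 100 bp.

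**Figure D3:**
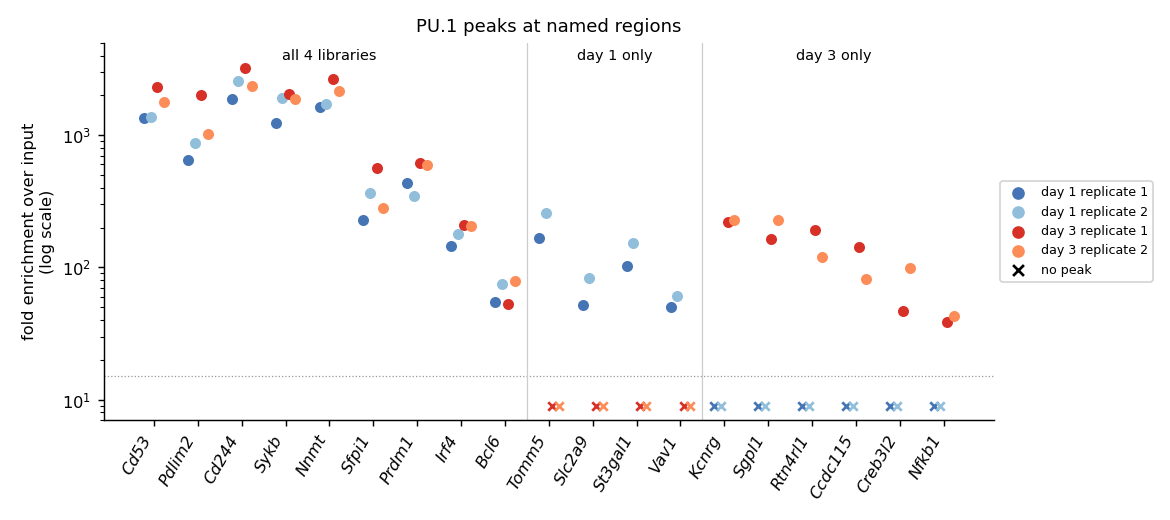
Authors' fold enrichment over input (vertical axis, log scale) at named regions in each library; crosses below the dotted line at 15, about the lowest value listed, are libraries with no peak. Common sites such as Cd244 and Sykb lie above 1000, and the sites of 1 day lie between 38.76 and 258.6. The common sites at Irf4 (145.6 to 210.8) and Bcl6 (53.13 to 78.37) fall within that range.

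The place of the day-restricted regions differed. Promoters, within 1 kb of a protein-coding transcript start, made up 2471 of 14200 regions of all 4 libraries (17.4%, 95% Wilson interval 16.79 to 18.03), 121 of 1370 of day 1 only (8.832%, 7.442 to 10.45) and 501 of 2177 of day 3 only (23.01%, 21.29 to 24.83). These intervals cover counting error only, since regions of a library are not replicates. The promoter share moved with day 3 replicate 1, whose part in the difference was not tested. Regions called in that library alone were at promoters in 26.58% of 8323 cases, and regions called in day 3 replicate 2 alone in 10.58% of 3695. Regions shared by day 1 replicate 2 and day 3 replicate 1, of different days, were at promoters in 27.64%. Without day 3 replicate 1 the promoter shares were 13.51% for day 1 only and 15.35% for day 3 only, and without day 3 replicate 2 they were 6.76% and 25.85%.

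The sequence under the regions was compared by short motifs. Within 100 bp of the peak position, 99.14% of common regions held a GGAA on either strand, against 87.57% of windows 2 kb to either side of the union regions. GAGGAA was present in 57.27% of common, 56.5% of day 1-only and 46.3% of day 3-only regions (flanking windows, 18.08%). CCGGAA was present in 6.979%, 3.723% and 9.692% (flanks, 2.195%). The EICE was present in 15.24%, 8.759% and 10.15% (flanks, 2.04%). Among distal regions alone, CCGGAA was at 3.99%, 2.642% and 3.699%, GAGGAA at 58.87%, 57.81% and 49.58%, and the EICE at 16.45%, 9.367% and 11.58%. Among promoter regions CCGGAA was at 21.17%, 14.88% and 29.74%, beside 14.07% of all protein-coding transcript starts. An AP-1 site (TGA and TCA around a C or a G) was present in 6.035%, 6.861% and 5.466% (flanks, 3.584%). The octamer ATGCAAAT was in 2.127%, 1.022% and 2.848% (flanks, 1.166%), and the Runx site TGTGGT in 18.43%, 20.8% and 14.24% (flanks, 15.32%). The day 1-only octamer share and the day 3-only Runx share lay below their flanks. The EICE contains GGAA and can overlap GAGGAA.

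IRF4, taken from the authors' group list of each day, was found within 200 bp of 1589 of the 14200 common regions (11.19%, 95% Wilson interval 10.68 to 11.72). It was found at 17 day 1-only (1.241%, 0.7762 to 1.978) and 53 day 3-only regions (2.435%, 1.866 to 3.171). Regions called in a single library had it in 0.8072%, and all union regions in 4.168%. At the common regions the IRF4 lists of day 1 and day 3 gave 8.028% and 8.063%. At day 1-only regions they gave 1.022% and 0.5109%, and at day 3-only regions 1.378% and 1.7%. The strength of the PU.1 peaks moves with these shares. A same-day IRF4 peak was found at 24.36% to 30.32% of the strongest 10% of each list and at 0.3817% to 1.135% of the weakest, and the EICE in 24.91% to 29.09% and 6.045% to 8.338%. The part of strength in the difference between the classes was not tested.

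**Figure D4:**
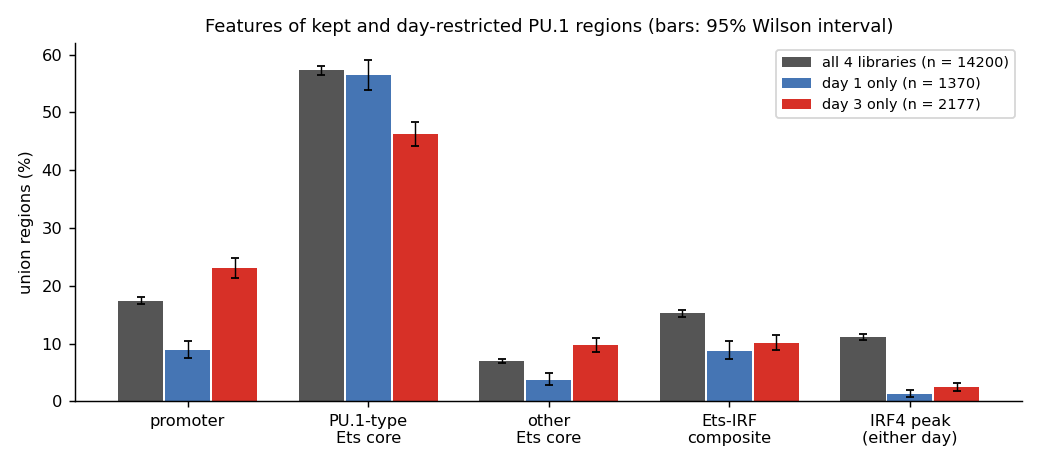
Share of union regions (%, vertical axis) with each feature, for regions of all 4 libraries (grey), day 1 only (blue) and day 3 only (red), with 95% Wilson intervals for counting error. Day 3-only regions have the highest promoter share (23.01%) and the lowest share with GAGGAA (46.3%), and IRF4 is most frequent at common regions (11.19%).

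Compared over libraries, the days did not separate beyond what 2 against 2 can show, where the smallest two-sided exact permutation p is 0.33. Promoters held 14.13% and 15.48% of the peaks on day 1 and 21.78% and 15.56% on day 3. The day 3 values were both higher, by 3.866 percentage points in the mean (14.81 ± 0.9542 and 18.67 ± 4.397, SD, n = 2; exact permutation p = 0.33, adjusted over 7 comparisons 0.778). Day 3 replicate 2 and day 1 replicate 2 were nearly level, and without day 3 replicate 1 the difference was 0.7565. GAGGAA was in 56.36% and 55.82% of the peaks on day 1 and 51.42% and 55.09% on day 3 (difference -2.836; exact permutation p = 0.33, adjusted 0.778). It was -1.004 without day 3 replicate 1 and -0.5881 with 50 bp on either side of the peak. CCGGAA was in 5.611% and 6.276% on day 1 and 8.634% and 6.433% on day 3 (difference 1.59; exact permutation p = 0.33, adjusted 0.778), and without day 3 replicate 1 the difference was 0.4892. In all 3 measures day 3 replicate 2 lay close to the day 1 libraries and day 3 replicate 1 away from them.

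The other measures overlapped between days. The EICE was in 13.78% and 11.46% of the peaks on day 1 and 10.61% and 13.19% on day 3 (difference -0.722). Mean GC content around the peak was 47.59% and 49.4% on day 1, against 49.92% and 48.25% for the day 3 libraries (difference 0.5834). A same-day IRF4 peak was found at 5.483% and 3.992% on day 1 and 3.874% and 4.439% on day 3 (difference -0.5809). Each of these had an exact permutation p of 0.667, adjusted 0.778. The number of peaks differed by 1549 (exact permutation p = 1).

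**Figure D5:**
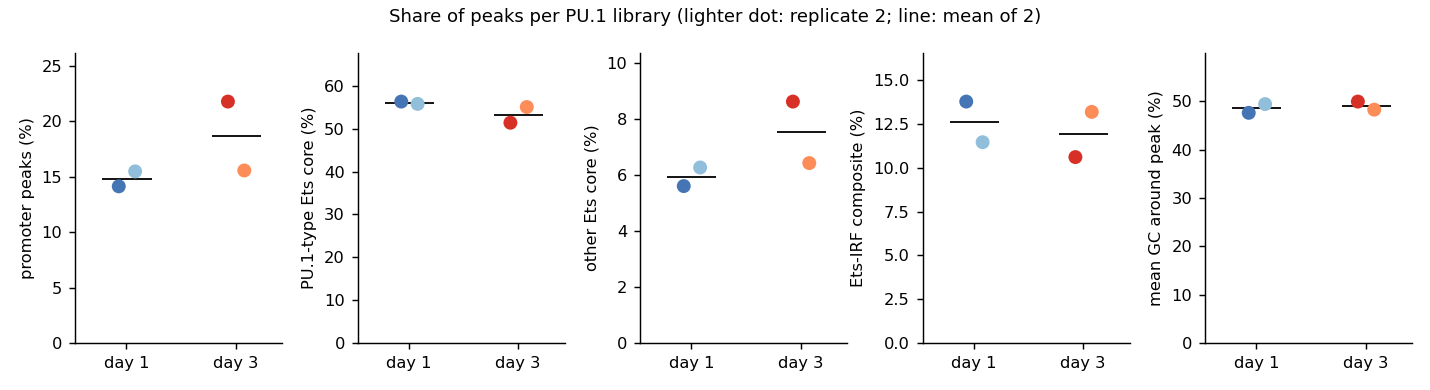
Share of peaks (%, vertical axes) at promoters, with GAGGAA (PU.1-type Ets core), CCGGAA (other Ets core) or EICE (Ets-IRF composite), and mean GC content, 1 dot per library and a line at the mean of the 2. Day 3 replicate 1 is the highest dot for promoters (21.78%) and CCGGAA (8.634%) and the lowest for GAGGAA (51.42%).

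By gene, PU.1 was called at the promoter in all 4 libraries for 2795 of 22372 protein-coding genes (12.5%). There were 86 genes with promoter peaks in day 1 only (0.384%) and 398 in day 3 only (1.78%), while 1406 had them in day 3 replicate 1 alone and 14480 in no library. A region of all 4 libraries lay in or within 20 kb of 9677 genes (43.3%). A day 1-only region lay near 1357 genes (6.07%) and a day 3-only region near 2734 (12.2%). Nearness was set by distance alone, and action of a site on the gene was not tested.

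Of 215 genes in 12 lists, 71 had a promoter peak in all 4 libraries, 0 in day 1 only and 1 in day 3 only. The latter was Irf4, with 2 weak peaks of 15.7 and 16.62, at the bottom of the lists. The count by gene takes any peak within 1 kb of a start. These peaks lay 174 bp past and 43 bp before the start, as separate union regions called in 1 library each. No day 3-only region lay within 20 kb of Irf4. The lists are described by their counts. Beside them stand the shares of all genes: 12.5% for promoter peaks in all 4 libraries, and 43.3%, 6.07% and 12.2% for a common, day 1-only or day 3-only region nearby. Over all 215 genes, 159 had a common region nearby (73.95%), 29 a day 1-only region (13.49%) and 53 a day 3-only region (24.65%). Neither the length of the genes nor their number of regions was adjusted for.

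Of the 12 lists, genes of B cell receptor signalling most often had PU.1 at the promoter in all 4 libraries: 15 of 20 (75%, against 12.5% of all genes). All 20 had a common region within 20 kb (43.3% of all genes). So had all 16 antigen presentation genes and all 16 B cell identity factor genes. Fcgr2b, the inhibitory Fc receptor, had promoter enrichments of 460.8 and 633.9 on day 1 and 773.1 and 796.3 on day 3. Dapp1, an adaptor below PI3-kinase, had 456, 707.8, 1307 and 606.3, and Cd79a, a signalling chain of the receptor, 148.6, 239.4, 387.6 and 215.1. Btk was called in 3 libraries (205.4, 171.6 and 222.1) and not in day 1 replicate 1. Day-restricted sites were found near 5 of the 20 genes for day 1 (25%, against 6.07% of all genes) and 4 for day 3 (20%, against 12.2%). The strongest lay in an intron of Vav1, a guanine exchange factor, with 50.54 and 61.03 in the day 1 libraries (chr17:57431666-57432082), while the Vav1 promoter was called in all 4 (48.79, 82.6, 194.2 and 130.9).

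Antigen presentation genes had promoter peaks in all 4 libraries at 8 of 16 (50%), and day 1-only and day 3-only regions near 4 (25%) and 6 (37.5%) of them. Cd40, the receptor for CD40L, had 491.1, 781.7, 855.8 and 604.9, Ciita, the master regulator of MHC class II, 184.9, 322.1, 226.5 and 247.3, and Cd74, the invariant chain, 115.7, 211.3, 200.3 and 181.6. Upstream of H2-Eb1, an MHC class II gene, a region at 3.92 kb was called in day 1 only (52.13 and 54.23, chr17:34438705-34439020). The H2-Eb1 promoter was called in all 4 libraries, with 107.6, 297, 183.4 and 209.6.

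Among 16 Ets and IRF factor genes, 7 had a promoter peak in all 4 libraries (43.75%). Sfpi1, which encodes PU.1, had a common region 702 bp past its outermost annotated start, in an intron (66 and 193.6 on day 1, 224.3 and 143.9 on day 3). Another lay 1407 bp upstream (56.92, 94.13, 90.37 and 86.33) and one 11.7 kb upstream, at Slc39a13 (228, 367.9, 559.7 and 279.4). Sfpi1 also has annotated starts farther in. Regions near them, 13.7, 14.3 and 14.8 kb past the outermost start, were called in 2, 2 and 1 libraries (16.07 to 24.23). No region within 20 kb of Sfpi1 was restricted to a day. At Irf4 the strongest of 4 common regions were 17.8 kb past the start, just beyond the gene (145.6, 180.3, 210.8 and 205.4), and 37.1 kb past it (229.6, 187.7, 331 and 162.1). Of the 16 genes, 4 had a day 1-only region nearby (25%, against 6.07% of all genes) and 7 a day 3-only region (43.75%, against 12.2%). Introns of Ets1, an Ets gene expressed in resting lymphocytes, held 3 regions of day 3 only (values up to 31.36) and 1 of day 1 only (23.6 and 34.58). Introns of Irf2 held 3 of day 3 only, with values up to 53.09.

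B cell identity factor genes all had a common region within 20 kb (43.3% of all genes), 105 regions over 16 genes, and 8 of 16 had a promoter peak in all 4 libraries (50%, against 12.5%). Day 1-only regions lay near 5 of the 16 (31.25%, against 6.07%) and day 3-only regions near 9 (56.25%, against 12.2%). Pax5, which maintains B cell identity, held 24 regions, of which 5 were common. The intron 40.2 kb past the start with the EICE printed above had 338 and 534.9 on day 1 and 925.5 and 634.2 on day 3. Its promoter was called in day 1 replicate 2 and day 3 replicate 1 alone (19.95 and 37.02). Ebf1, a B lineage regulator, held 44 regions with 14 common, led by an intron (361.9, 384.2, 448.6 and 563). Bach2, which restrains plasma cell formation, held 48 with 18 common, led by the lowest rank percentile by an intron (350.8, 663.5, 742.6 and 638.4), while another intronic region at chr4:32445418-32446407 had 341.2, 684.2, 751.3 and 748.8. Each of Bcl6, Pax5 and Ebf1 had a single region restricted to a day and Bach2 had 2. The Pax5 region was day 3-only (26.35 and 24.03) and those of Bcl6 (16.9 and 24.38) and Ebf1 (19.13 and 21.43) were day 1-only. Bach2 had an intronic region in day 1 only (22.32 and 16.25) and one beyond the gene in day 3 only (84.93 and 47.22), which overlapped a day 1 interval.

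Plasma cell genes had few promoter peaks, 2 of 16 in all 4 libraries (12.5%, also the share of all genes), at Zbtb20 (169, 237.9, 224.3 and 190) and Mcl1, a survival factor (26.31, 54.38, 103 and 46.94). No library had a promoter peak at Prdm1 (encoding Blimp-1, the plasma cell repressor), Xbp1, Sdc1 or Creb3l2. Around Prdm1, 5 of 10 regions were common. The strongest lay beyond the gene end, 93.8 kb past the outermost start and 23.9 kb past the nearest annotated start (435.3 and 348.7 on day 1, 618.4 and 592.3 on day 3). Day 3-only regions lay near 7 of the 16 genes (43.75%, against 12.2% of all genes), a smaller share than in the B cell identity list and the same as for Ets and IRF factors. Day 1-only regions lay near 2 (12.5%, against 6.07%). An intron of Creb3l2, a transcription factor of the secretory pathway, had 47.04 and 98.63 (chr6:37376664-37377203) and carried the EICE printed above. Mcl1 had a day 3-only region 15.2 kb past its start (56.18 and 43.59), and Zbtb20 had 3 day 3-only regions.

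Germinal centre genes had 3 of 16 promoters called in all 4 libraries, at Slamf1, Msh6 and Ccnd2, with enrichments between 16.55 and 74.74. Of the 16 genes, 2 had a day 1-only region nearby (12.5%, against 6.07% of all genes) and 3 a day 3-only region (18.75%, against 12.2%). At the unfolded protein response and secretion genes, 5 of 20 were called in all 4 libraries. The numbers per library were 6 and 13 on day 1 and 16 and 10 on day 3, so the days overlapped. Over all genes the shares with a promoter peak were 16.63% and 24.44% on day 1 and 29.96% and 22.23% on day 3, in the same order of libraries. Dnajb9, a chaperone of the endoplasmic reticulum, had 33.48 and 86.15 on day 1 and 261.3 and 112.9 on day 3. Hspa5, Ddit3, Pdia4 and Herpud1 had a promoter peak in day 3 replicate 1 alone (16.83 to 30.49). Day 1-only regions lay near 2 of the 20 unfolded protein response and secretion genes (10%). Day 3-only regions also lay near 2 (10%).

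Cell cycle genes had 5 of 20 promoters called in all 4 libraries. The promoter of the DNA clamp gene Pcna had 18.02 and 47.88 on day 1 and 119.1 and 46.52 on day 3, and that of the helicase gene Mcm7 22.64, 41.08, 118.2 and 54.76. Mcm2 was called in day 3 replicate 1 alone (81.44). Activation and NF-kB genes had 11 of 20, among them the promoters of Nfkb1 (266.3, 397.5, 518.3 and 321.3) and Tnfaip3, an inhibitor of NF-kB (220, 595.5, 768.7 and 445.6). Introns of Nfkb1 held 4 regions of day 3 only, the strongest at 38.76 and 42.89, among 24 regions in all. Day 3-only regions lay near 3 of the 20 activation and NF-kB genes (15%, against 12.2% of all genes). Day 1-only regions lay near 1 (5%, against 6.07%). For the cell cycle list these counts were also 3 and 1 of 20.

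Among genes of other cell types, myeloid PU.1 targets had 5 of 20 promoters called in all 4 libraries (25%), T and NK cell markers 1 of 20 (Cd5, also a B cell protein) and erythroid and megakaryocyte markers 1 of 15 (Pf4). Tlr4, a receptor for bacterial lipopolysaccharide that B cells share with myeloid cells, had 307.7, 505.4, 844.9 and 638.4, and Ncf1, a subunit of the phagocyte oxidase, 261.5, 427, 524.8 and 417.7. Csf1r, the growth factor receptor of macrophages, had 40.34, 43, 27.22 and 22.21. The granule genes Mpo, Elane and Ctsg and the regulator Cebpa had no promoter peak in any library. Itgam had a day 3-only region in an intron (44.64 and 32.13) and a day 1-only region 14.6 kb away from its start (17.22 and 16.4). Of the 20 myeloid genes, 4 had a day 3-only region nearby (20%, against 12.2% of all genes) and 1 a day 1-only region (5%, against 6.07%). For the 20 T and NK cell markers these counts were 3 (15%) and 2 (10%). For the 15 erythroid and megakaryocyte markers they were 2 (13.33%) and 0.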

How the data were processed

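Reads were mapped by the authors to mm9, and QuEST was used to call peaks over an input, per the series' design text. No version, threshold or aligner was stated in the sources used here. Each deposited line holds, per the file headers, an interval, the position of the peak and its highest enrichment. This value was read as a linear ratio (fold) to input and used only to rank and describe peaks within a list. The lowest listed fold was between 14.9 and 15.1. The lists hold no read counts, so depth is unknown. An input library, pooled from 2 preparations, enters no comparison. The PU.1 and IRF4 group lists, 1 per day, are the authors' lists of peaks shared by libraries.

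Peaks were called per library. Positions within 200 bp were merged by single linkage, and promoter means within 1 kb of a protein-coding transcript start of GENCODE M1 on mm9 (22372 genes). Motifs were searched on both strands, 100 bp to either side of the peak position. The sources do not state whether positions count from 0 or 1, and they were read as counting from 1. Libraries were compared with two-sided exact permutation tests and Benjamini-Hochberg adjustment over 7 comparisons. Named regions are the 5 with the highest lowest rank percentile per class at promoters and distal sites. Named list genes are those whose promoter or surroundings differ between days in all 4 libraries, with Sfpi1, Irf4, Prdm1, Bcl6, Pax5, Ebf1 and Bach2; other list genes were named after their values were seen. All 215 list genes were matched, 1 by an older symbol. The members, lists and tests were chosen with earlier results of these data known. Merging and classing were run on simulated, widely spaced sites with close peaks. Regions could neither chain nor split there, so this checked the code and not crowded places. Python 3.11.15, pandas 2.3.3, scipy 1.17.1 and pysam 0.24.0 were used.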

Additional observations from a re-analysis of the deposited data

How the results depend on the processing

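The number of regions common to all libraries was 14200 and stayed within 1.5 times of this under every alternative run except the stronger 50% of each list, where it was 8471. Leaving out a library loosens the rule for a day, so the day counts can only stay or grow and say nothing of a single library. They were 2746 to 8845 regions for day 1 and 3810 to 10520 for day 3, 153 to 524 genes with promoter peaks in day 1 only and 575 to 1804 in day 3 only. Promoter shares then ran from 14.45% to 19.28% for common regions, 6.76% to 13.51% for day 1 only and 15.35% to 25.85% for day 3 only. The stronger 50% of each list gave 452 day 1-only and 936 day 3-only regions, a promoter share of 16.13% of common regions, and 1461, 26 and 227 genes for all 4 libraries, day 1 only and day 3 only. An enrichment of 20 or more gave 855 day 1-only regions. The group lists gave 7834 and 7238 peaks without a partner on the other day, because each day's list then stands alone.

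With promoters within 500 bp the shares were 13%, 5.839% and 18.42% for common, day 1-only and day 3-only regions. With 5 kb they were 32.65%, 22.77% and 38.4%, with 4952 genes in all 4 libraries and 130 in day 1 only. With 50 bp on either side of the peak, GAGGAA was in 48.96%, 44.53% and 38.59% of these regions, CCGGAA in 4.507%, 2.336% and 7.028% and the EICE in 13.16%, 5.62% and 7.947%. The wider and narrower definitions themselves set these levels.

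Differences between days reversed in 4 measures. Leaving out each library gave -3816 to 6914 peaks, -2.008 to 0.564 percentage points for the EICE, -0.3213 to 1.488 for GC content and -1.326 to 0.1646 for IRF4. The EICE difference was 0.0622 with the narrower window. The cause was not tested. The promoter, GAGGAA and CCGGAA differences kept their sign under every alternative run. With the replicate block the promoter difference is 3.866 by construction and its exact p was 0.5, the smallest that pairing allows. Neither design can reach a threshold of 0.05, so the p-values say nothing on stability. Same-numbered libraries did not deviate together (r = -0.0027 over 57561 regions), so the numbers were not taken as a pairing. Unknown depth limits any statement on a region that a list lacks.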

Other observations

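GAGGAA was in 62.17% to 63.34% of the peaks in the strongest 10% of each list and in 46.76% to 51.8% in the weakest. Promoters made up 9.44%, 11.95% and 11.15% of the strongest 10% of day 1 replicate 1, day 1 replicate 2 and day 3 replicate 2, and 19.04% in day 3 replicate 1. In the weakest 10% they made up 15.04%, 14.69%, 15.77% and 17.61%, in that order.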
